A study of Mus musculus with 48 samples.

Results

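Whole left ventricle of PLNR9C mice was compared with that of wild type mice at 20 weeks of age, across all expressed genes. PLNR9C is an arginine-to-cysteine mutant of phospholamban that causes inherited dilated cardiomyopathy in people. The members were the 6 libraries whose labels read PLNR9C or wild type, vehicle and 20 weeks, 3 of each genotype, out of 48 libraries in the series, and all 15971 genes that passed the filter on low counts, out of 31920 in the table. All 6 animals were of the FVB strain and had received vehicle, the control for a 50 mg/kg dose of the BET bromodomain inhibitor JQ1 given to other groups. The 3 libraries of each group are described as individual biological replicates. The labels give the same disease stage, dilated cardiomyopathy, to the 20-week samples of both genotypes, so they do not record the stage of the wild type animals separately. The sources used here do not say how the mutation was introduced or which promoter drives it. Counts of Pln reads are not split by mutant and normal sequence, and which copies they include is not known.

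Phospholamban sits in the membrane of the sarcoplasmic reticulum and restrains SERCA2a, the pump that returns calcium to the store after each beat. Stimulation of beta-adrenergic receptors relieves the restraint through phosphorylation of phospholamban. Failing ventricles are known for reactivated fetal genes such as natriuretic peptides and beta-myosin, for reduced use of fatty acids as fuel, and for fibrosis, the deposition of collagen by activated fibroblasts.

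Each library held 18415351 to 25753242 reads in genes. The first principal component of log2 CPM (counts scaled to library size with TMM factors) held 73.8% of the variance over the 6 libraries and separated the genotypes. Reads from the mitochondrial genome made up 14.1% ± 0.26 of the reads in wild type and 8.57% ± 0.93 in PLNR9C (SD, n = 3), and the 10 most abundant genes 20.0% to 20.9% and 12.1% to 13.9%. Of the atrial genes Myl7 had 1 to 13 reads and Bmp10 0 to 7 reads per library. The 7 of 9 atrial markers that passed the filter summed to 81.1 to 97.3 CPM in wild type and 87.0 to 112.4 CPM in PLNR9C. By the test described below 1 of the 7 rose in PLNR9C and 2 fell. The rise was Dkk3, which the Wnt list also holds, at means of 2.68 CPM in wild type and 43.4 CPM in PLNR9C. 4 Y-linked genes had 387 to 2289 reads in each of the 6 libraries.

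The genotypes differed widely. By edgeR's quasi-likelihood test with Benjamini-Hochberg adjustment, 3728 genes rose and 3417 fell in PLNR9C at an adjusted p under 0.05, which is 23.3% and 21.4% of the genes tested. These shares are the background for every list below, and the median log2 fold change over all genes was 0.01. Rises were larger than falls: 1499 genes rose and 655 fell at least 2-fold. 28 genes rose and 5 fell by 5 or more on the log2 scale. In a single table of bulk tissue, fewer cells of a type and less RNA per cell cannot be told apart. Values are CPM per library or log2 fold changes, PLNR9C minus wild type, with their standard error (SE).

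**Figure D1:**
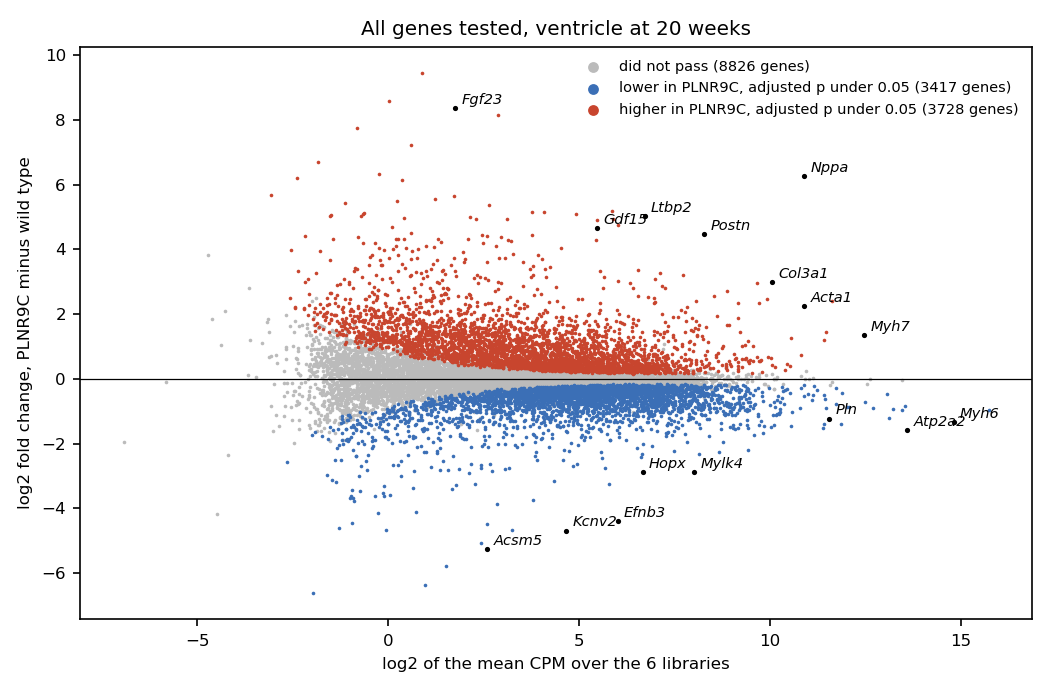
Log2 fold change (PLNR9C minus wild type) against the log2 of the mean CPM for the 15971 genes tested, red for the 3728 that rose, blue for the 3417 that fell grey for the rest and black for labelled genes. The red points reach farther from 0 than the blue ones, and genes of high CPM such as Myh6 and Atp2a2 lie among the falls.

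Phospholamban itself (Pln, chromosome 10, 53337686 to 53345999, GRCm38) fell: it stood at 4369.8, 4149 and 4046 CPM in wild type and 1805, 1870.0 and 1689 CPM in PLNR9C, a log2 fold change of -1.23 ± 0.08 (SE, adjusted p = 1.1e-09). Atp2a2, which encodes the SERCA pump, fell further, from 18525, 19444 and 17620.1 CPM in wild type to 5577, 5801 and 7139.6 CPM in PLNR9C (-1.59 ± 0.10). For both genes the 3 PLNR9C libraries lay far below the 3 wild type ones. Of 16 tested genes of calcium cycling 9 fell and 3 rose (median -0.29). Ryr2, the release channel, fell by 1.52 on the log2 scale and Hrc, a calcium-binding protein of the store lumen, went from 1694, 1547 and 1379 CPM in wild type to 497, 543 and 591 CPM in PLNR9C. The 3 rises were of Fkbp1b, which stabilises the release channel, at 0.303, 0.800 and 0.558 CPM in wild type and 1.11, 0.918 and 1.51 CPM in PLNR9C, of sorcin (Sri), a regulator of that channel (0.39 ± 0.08), and of calreticulin (Calr), a chaperone that binds calcium (0.32 ± 0.09). Fkbp1b was at a low level in both groups and lost its call without replicate 1 or 3 of either genotype (adjusted p from 0.0644 to 0.155). Calr had overlapping libraries and lost its call without PLNR9C replicate 3 (adjusted p = 0.0511). Of the other micropeptide regulators of SERCA, sarcolipin (Sln) had 0 to 3 reads per library and myoregulin (listed as 2310015B20Rik) 0 to 4, and Strit1 was not analysed here.

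Nppa, the gene of atrial natriuretic peptide (chromosome 4, 148000746 to 148002067), had the largest rise among genes with at least 10 CPM in the higher group and no overlap between the groups. Its level was 38.3, 39.9 and 68.8 CPM in wild type and 3927, 3884 and 3429.6 CPM in PLNR9C (6.26 ± 0.30). The lowest PLNR9C library was far above the highest wild type one. The related Nppb was at 43.6, 61.5 and 133 CPM in wild type and 228, 222 and 278 CPM in PLNR9C (1.62 ± 0.48, adjusted p = 0.025); the groups did not overlap, but wild type replicate 3 stood apart from the others, and the call was lost without either of wild type replicates 1 and 2 or PLNR9C replicates 1 and 3 (adjusted p from 0.0506 to 0.0808) and in a fit on the 6 libraries alone (adjusted p = 0.0535). Of 20 tested genes of this natriuretic and stress list 12 rose and 4 fell, a count of rises that dropped to 7 without wild type replicate 1. Enzymes and receptors that act on the peptides differed among themselves. Npr1, the main signalling receptor, did not pass (-0.04 ± 0.11, adjusted p = 0.81). Corin, the protease that activates the Nppa product, went from 396, 350.2 and 393 CPM in wild type to 281, 287 and 244 CPM in PLNR9C (-0.49 ± 0.08), Mme, the peptidase neprilysin that degrades natriuretic peptides, changed by -1.67 ± 0.13, and the clearance receptor Npr3 by 1.19 ± 0.12. Xirp2, an actin-binding repeat protein of the intercalated disc, rose from 1051, 954 and 1014 CPM in wild type to 5102, 5775 and 5027 CPM in PLNR9C. Gdf15, a circulating stress cytokine, was at 1.905, 1.91 and 6.59 CPM in wild type and 69.3, 75.3 and 110.2 CPM in PLNR9C (4.65 ± 0.55, adjusted p = 1.4e-04). Fgf23, a phosphate-regulating hormone made mainly in bone, had 0, 1 and 0 reads in wild type and 220, 127 and 144 reads in PLNR9C.

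The largest rises that met the limits on level and overlap follow. Ltbp2, a latent TGF-beta binding protein of microfibrils, went from 4.16, 6.04 and 8.82 CPM in wild type to 213, 216 and 182 CPM in PLNR9C (5.02 ± 0.32). Cilp, a matrix protein known from cartilage, went from 2.77, 4.798 and 3.701 CPM in wild type to 116, 106 and 120.02 CPM in PLNR9C (4.92 ± 0.29). In both genes the 3 PLNR9C libraries lay close together. Wisp2, a CCN family matricellular protein, rose by 5.19 ± 0.43 and Sfrp2, a secreted Wnt modulator, by 5.15 ± 0.48. Comp, a pentameric matrix protein of tendon and cartilage, was at 1.64, 0.977 and 2.64 CPM in wild type and 55.99, 91.4 and 27.8 CPM in PLNR9C (5.08 ± 0.51), with PLNR9C replicate 3 the lowest of its group. Angptl7, a secreted angiopoietin-like protein, was less even still, at 4.72, 2.53 and 1.22 CPM in wild type and 102, 144 and 10.99 CPM in PLNR9C (4.90 ± 0.94, adjusted p = 0.0029). PLNR9C replicate 3 was near the wild type range for that gene, and limma voom did not call it (adjusted p = 0.0809). Others were the chemokine Ccl8, the protease Adamts20, Mfap4, Gdf15, Postn, Col12a1 and Col8a2, with log2 fold changes from 4.45 to 5.37.

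The 15 largest falls were led by Acsm5, a medium-chain acyl-CoA synthetase of mitochondria, which went from 13.5, 12.4 and 9.53 CPM in wild type to 0.302, 0.367 and 0.243 CPM in PLNR9C (-5.25 ± 0.29, adjusted p = 2.0e-10). Efnb3, a membrane-bound ephrin, went from 138, 117 and 114 CPM in wild type to 4.66, 6.89 and 6.12 CPM in PLNR9C (-4.40 ± 0.19). Its highest PLNR9C value was far under its lowest wild type value. Mylk4, a myosin light chain kinase of heart muscle, fell from 533, 488 and 351 CPM in wild type to 52.5, 75.2 and 59.5 CPM in PLNR9C (-2.87 ± 0.26), and Hopx, a homeodomain protein without DNA binding, from 215, 155 and 169 CPM in wild type to 26.2, 21.5 and 24.5 CPM in PLNR9C (-2.90 ± 0.17). Fbp2, the muscle form of fructose bisphosphatase, fell by 3.86, Pfkfb1, which makes the activator of phosphofructokinase, by 3.73, and the mitochondrial carrier Ucp3 by 3.15. Scd4 (a desaturase), Kcnv2, Cyp2b10, Lgi1, Ces1d, Pla2g4e, Rasd2 and the sodium channel Scn4a made up the rest, with log2 fold changes from -2.75 to -5.07.

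**Figure D2:**
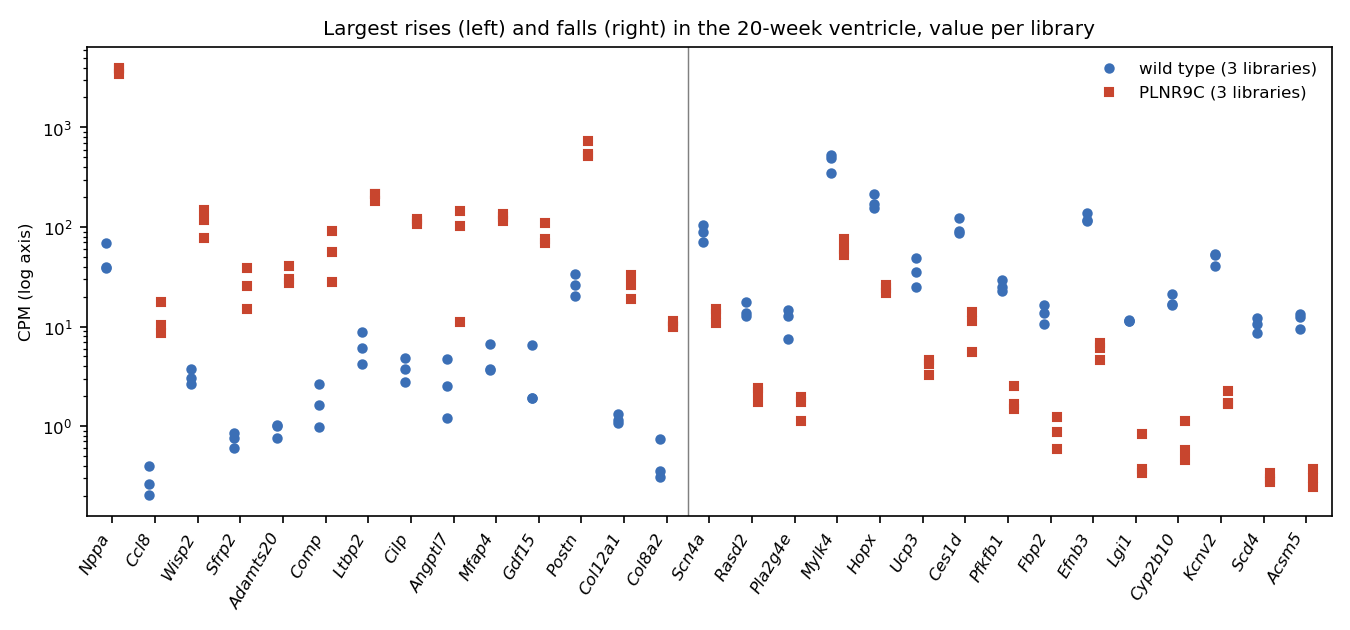
CPM in each of the 6 libraries (log axis) for 14 of the 15 genes with the largest rises and the 15 with the largest falls, circles for wild type and squares for PLNR9C. The genotypes do not overlap for any of these genes, which was a condition for naming them, and Angptl7 has 1 PLNR9C library well under the other 2.

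The contractile genes changed by isoform. Of 23 tested members 7 rose and 8 fell (median -0.01). Myh6, the fast alpha-myosin heavy chain of adult mouse ventricle, fell from 43462, 42242 and 37808 CPM in wild type to 12999, 17279.9 and 18821 CPM in PLNR9C (-1.33 ± 0.12). Myh7, the slow beta-myosin, rose from 3372, 3159 and 3054 CPM in wild type to 8767, 9144 and 6619.9 CPM in PLNR9C (1.36 ± 0.12). Skeletal alpha-actin, Acta1, rose from 737, 650.4 and 618 CPM in wild type to 2959, 2786 and 3731 CPM in PLNR9C (2.24 ± 0.23), while cardiac actin, Actc1, was at 11554, 12061 and 10502 CPM in wild type and 10922, 10814 and 11257 CPM in PLNR9C (-0.05 ± 0.08, adjusted p = 0.67) and its groups overlapped. The ventricular light chains Myl3 and Myl2 fell by 1.45 and 1.12 and cardiac troponin I, Tnni3, by 1.29. Of 26 Z-disc and titin-associated genes 8 rose and 11 fell, and 7 fell without PLNR9C replicate 1. A pair of LIM-domain proteins crossed over. Fhl2 (chromosome 1, 43123074 to 43196761) went from 1133, 1139 and 1100.4 CPM in wild type to 230.4, 251 and 253 CPM in PLNR9C (-2.20 ± 0.11, adjusted p = 2.9e-10), and Fhl1 (chromosome X, 56731787 to 56793346) from 249, 264 and 312 CPM in wild type to 1361, 1286 and 1525 CPM in PLNR9C (2.34 ± 0.19, adjusted p = 1.7e-06). Each moved outside the range of the other genotype, and per unit length (RPKM) Fhl1 stood at 67.3, 72.8 and 86.3 RPKM in wild type and 459, 414 and 496 RPKM in PLNR9C, while Fhl2 stood at 627, 645 and 625 RPKM in wild type and 159, 166 and 169 RPKM in PLNR9C. Desmin (Des), the intermediate filament that ties Z-discs together, rose from 1723, 1587 and 1681 CPM in wild type to 3559, 4072 and 3867 CPM in PLNR9C (1.20 ± 0.08).

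Shares within pairs of related genes were set out per unit length in RPKM (reads scaled by gene length and library size), which lets levels of different genes be compared. The 18 pairs were picked after their values were seen, so their common direction is a description. In each pair the first gene is the form best known from adult or striated muscle, or the more abundant one in wild type heart. Its share of the pair was lower in every PLNR9C library than in every wild type library for all 18 pairs. In 4 pairs, led by Fhl2, Rpl3l, Eef1a2 and Timp4, the first gene went from the larger to the smaller share, and in the other 14 it kept the larger one. Fhl2 went from 89.3% ± 1.3 to 26.6% ± 1.7 of Fhl2 plus Fhl1 (SD, n = 3). Rpl3l, the striated-muscle copy of a protein at the peptidyl centre of the ribosome, went from 85.3% ± 1.5 to 36.7% ± 3.5 of the sum with Rpl3, with Rpl3l at 104, 104 and 89.8 RPKM in wild type and 22.8, 22.8 and 25.98 RPKM in PLNR9C and Rpl3 at 16.1, 17.3 and 17.5 RPKM in wild type and 45.9, 38.99 and 38.8 RPKM in PLNR9C. The translation factor Eef1a2 went from 65.0% ± 2.6 to 42.0% ± 3.1 of its pair with Eef1a1; Eef1a1 itself rose by 1.02 ± 0.09, whereas the change of Eef1a2 (-0.36 ± 0.11, adjusted p = 0.014) was lost without replicate 1 of either genotype (adjusted p = 0.0546 and 0.0992). Tuba4a went from 91.8% ± 1.7 to 71.8% ± 2.8 of alpha-tubulin shared with Tuba1a, and the glucose transporter Slc2a4 from 95.3% ± 0.63 to 84.8% ± 1.2 with Slc2a1. Among enzymes, hexokinase Hk2 went from 78.2% ± 2.7 to 57.2% ± 4.2 with Hk1 and phosphofructokinase Pfkm from 95.6% ± 1.2 to 82.4% ± 2.7 with Pfkp. Among cytochrome oxidase subunits, Cox6a2 went from 88.0% ± 0.91 to 77.5% ± 0.93 with Cox6a1 and Cox8b from 75.9% ± 2.8 to 57.4% ± 1.2 with Cox8a. Timp4, an inhibitor of metalloproteases, went from 90.1% ± 5.6 to 18.1% ± 8.7 with Timp1, the widest shift of the 18. Of the second genes 16 rose and 2 did not pass, Pgam1 (0.42 ± 0.17, adjusted p = 0.062) and Ldha (-0.02 ± 0.07, adjusted p = 0.87). The calls of Cox6a1, Cox8a and Slc25a5 were lost without any of several single libraries (adjusted p up to 0.211, 0.0666 and 0.0808). Genes of a pair resemble each other in sequence, and the sources used here do not say how reads that match both were counted, so these shares are uncertain.

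**Figure D3:**
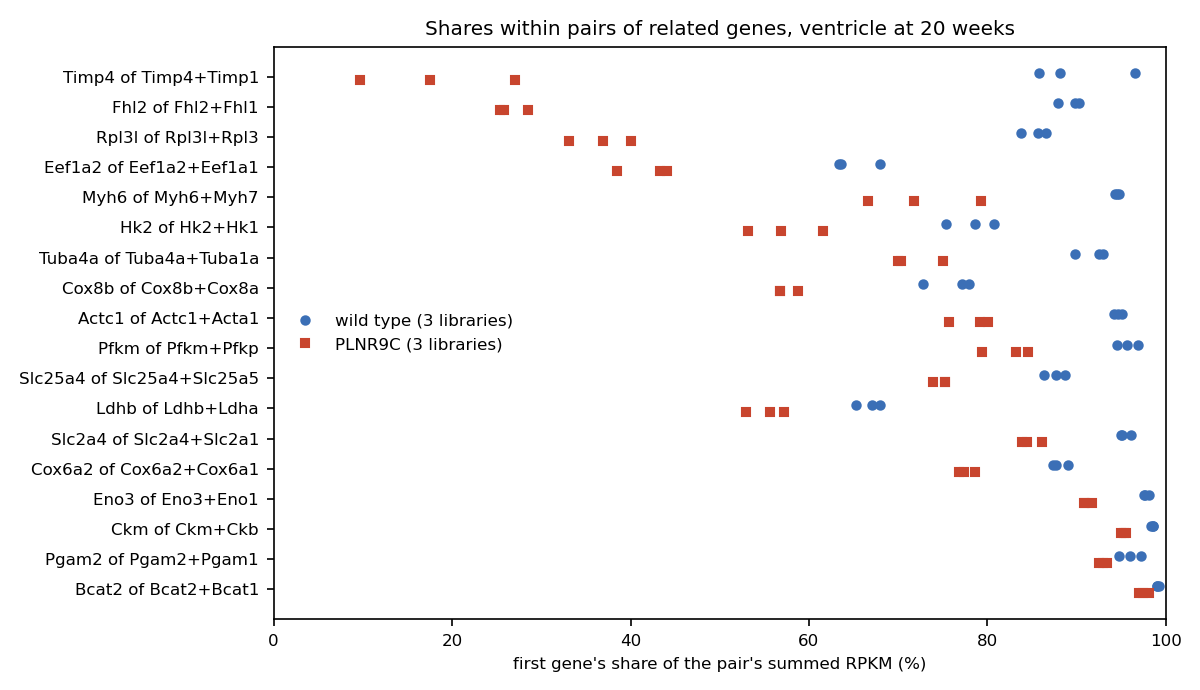
Share of the first gene in the summed RPKM of 18 pairs of related genes, in percent, for the 3 wild type libraries (circles) and the 3 PLNR9C libraries (squares). All squares lie to the left of the circles of the same pair; the pairs were chosen after seeing their values.

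Genes of fuel oxidation in mitochondria fell together. Of 24 genes of fatty acid beta-oxidation 23 fell and 0 rose (median -1.35), against 21.4% of all genes. Decr1, which prepares unsaturated chains for oxidation, went from 392, 347 and 338 CPM in wild type to 96.6, 93.3 and 90.95 CPM in PLNR9C (-1.94 ± 0.08, adjusted p = 7.3e-12), and Acaa2, the thiolase of the last step, from 518, 469 and 428 CPM in wild type to 98.5, 82.8 and 99.7 CPM in PLNR9C (-2.33 ± 0.10). In both genes every PLNR9C library was far under the lowest wild type one. Uptake and activation genes fell in 13 of 19 cases, among them Acsl1 (-1.75 ± 0.08) and the binding protein Fabp3 (-1.38 ± 0.09). 1 rose, Acsl5 (0.58 ± 0.14).

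Of 24 genes of branched-chain amino acid breakdown 23 fell, with a smaller median of -0.85. Mccc2, a subunit of methylcrotonyl-CoA carboxylase in leucine breakdown, went from 74.1, 68.7 and 70.4 CPM in wild type to 26.1, 28.1 and 26.98 CPM in PLNR9C (-1.39 ± 0.09, adjusted p = 6.6e-10). Aldh6a1, of the valine branch, went from 266, 289 and 268 CPM in wild type to 100.5, 112 and 115 CPM in PLNR9C (-1.33 ± 0.08) and Mut, methylmalonyl-CoA mutase, fell by 1.05. The exception was Bcat1, the cytosolic aminotransferase, at 1.86, 2.04 and 1.93 CPM in wild type and 4.36, 2.800 and 3.84 CPM in PLNR9C (0.92 ± 0.25, adjusted p = 0.0062), a low level in both groups. All 7 genes of ketone body oxidation fell, from Oxct1, which activates ketone bodies, at -0.31 ± 0.07, to Acat1 at -1.23 ± 0.07, which the branched-chain list also holds. The citric acid cycle and pyruvate oxidation list had 28 falls in 29 genes (median -0.87), with Sdha, a succinate dehydrogenase subunit, at 1667, 1577 and 1493 CPM in wild type and 719, 719 and 731 CPM in PLNR9C and Idh2 at 1764, 1592 and 1508 CPM in wild type and 619.7, 629 and 552 CPM in PLNR9C. The PLNR9C values of both genes were all under the lowest wild type value. The citric acid cycle and pyruvate oxidation list also counts kinases that restrain pyruvate oxidation. Of these Pdk2 (-0.88 ± 0.08) and Pdk4 (-1.76 ± 0.45) fell, and Pdk1 did not pass (-0.16 ± 0.07). Bckdk (-0.32 ± 0.08), counted among the branched-chain falls, is likewise a kinase that restrains its pathway.

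Subunits of the respiratory chain encoded in the nucleus moved almost evenly. 36 of 37 genes of complex I fell, with a median of -0.82, and 33 of 36 of complexes III to V (median -0.78). Ndufs1, the largest complex I subunit, went from 926, 893 and 869.96 CPM in wild type to 445, 449 and 440.4 CPM in PLNR9C (-1.01 ± 0.07) and Uqcrc1, of complex III, from 1797, 1502 and 1609 CPM in wild type to 774, 826 and 820.3 CPM in PLNR9C (-1.02 ± 0.09). The 2 rises were Cox8a (0.30 ± 0.10) and Cox6a1 (0.30 ± 0.12), the widely expressed forms named above. All 13 messenger RNAs of the mitochondrial genome fell (median -1.20), with mt-Co1 at 70041, 74584 and 70736 CPM in wild type and 32784, 41602 and 36620.1 CPM in PLNR9C. However, 6 of the 13 (mt-Co2, mt-Co3, mt-Atp6, mt-Atp8, mt-Nd3 and mt-Nd4l) held 4 to 206 reads per library against 62689 to 1678688 for the other 7, a gap not explained in the sources used here, and the calls of mt-Co2 and mt-Co3 were lost without any of PLNR9C replicates 1 and 3 and wild type replicate 1 (adjusted p up to 0.156). Without mitochondrially encoded genes in the scaling, the genes called were 3707 that rose and 3395 that fell. Mitochondrial ribosomal proteins fell in 27 of 34 cases by a smaller measure (median -0.47), and 21 of 31 genes of import, dynamics and quality control fell, among them the kinase Pink1 (-1.13 ± 0.10) and the fusion protein Opa1 (-0.70 ± 0.07).

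Of 20 regulators of mitochondrial genes 18 fell and 0 rose (median -0.52). Ppara, the fatty acid receptor that drives oxidation genes, went from 247, 243 and 227 CPM in wild type to 101, 109 and 86.9 CPM in PLNR9C (-1.27 ± 0.09, adjusted p = 4.8e-09), and its partner Rxrg from 66.5, 66.6 and 67.7 CPM in wild type to 25.7, 27.8 and 32.03 CPM in PLNR9C (-1.23 ± 0.09). Esrrg, an orphan nuclear receptor of the same programme, fell by 0.80. Ppargc1a, the coactivator PGC-1 alpha, was at 296, 235 and 383 CPM in wild type and 114, 139 and 82.8 CPM in PLNR9C (-1.44 ± 0.38, adjusted p = 0.013), a wider spread than the receptors. The summed CPM of 10 sarcomeric and ventricular identity genes was 67816 to 77375 CPM in wild type and 41857 to 46757 CPM in PLNR9C. Myh6 was the largest term of that sum, at means of 41170 CPM in wild type and 16370 CPM in PLNR9C. Of the 10 genes 8 fell and 1, Myh7, rose (median -0.91). The part of these 10 genes in the falls was not tested. Beside them, 12 of 28 genes of glucose transport and glycolysis rose and 8 fell (median 0.15). Eno2, an enolase best known from neurons, went from 2.81, 3.55 and 3.599 CPM in wild type to 17.9, 16.3 and 18.5 CPM in PLNR9C (adjusted p = 9.3e-09), and muscle enolase Eno3 from 1135, 914 and 913 CPM in wild type to 342, 382 and 385 CPM in PLNR9C (-1.42 ± 0.11). In the creatine list 3 of 14 rose and 7 fell. The muscle kinases Ckm and Ckmt2 fell by 1.09 and 0.94, while Ckb rose by 0.58 ± 0.08 and Gatm, which makes the precursor of creatine, by 1.31 ± 0.22. Myoglobin (Mb), the oxygen store of muscle, went from 7872, 6638 and 7087 CPM in wild type to 4202, 4541 and 4344 CPM in PLNR9C.

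Ion channels fell more often than they rose. Among 23 tested potassium channel subunits 17 fell and 2 rose (median -0.68). Kcnv2, a silent subunit that modifies Kv2 channels, had the largest fall, from 53.6, 52.7 and 40.7 CPM in wild type to 2.25, 1.65 and 1.701 CPM in PLNR9C (-4.69 ± 0.18, adjusted p = 1.7e-11). Kcnj3, of the acetylcholine-gated channel, went from 27.3, 24.3 and 20.5 CPM in wild type to 4.96, 5.600 and 4.57 CPM in PLNR9C (-2.25 ± 0.16). Abcc9 and Kcnj11, the subunits of the ATP-sensitive channel, fell by 1.43 and 0.81. The 2 rises, Kcnma1 (2.47 ± 0.54) and Kcnab1 (0.88 ± 0.30), were of genes at 0.0433 to 2.09 CPM, and that of Kcnab1 was lost without any of 4 single libraries (PLNR9C replicates 1 and 3, wild type replicates 2 and 3; adjusted p from 0.0574 to 0.0902). Of 17 sodium, calcium, chloride and pacemaker channel genes 10 fell and 4 rose. Clcn1, the muscle chloride channel, went from 6.54, 6.798 and 3.498 CPM in wild type to 0.0670, 0.0918 and 0.146 CPM in PLNR9C (-5.78 ± 0.45, adjusted p = 1.3e-08) and Cacna1g, a T-type calcium channel, from 42.03, 45.5 and 35.4 CPM in wild type to 7.17, 5.42 and 8.94 CPM in PLNR9C (-2.52 ± 0.23). Hcn4, a pacemaker channel, fell from 13.8, 12.04 and 7.15 CPM in wild type to 2.28, 1.65 and 1.22 CPM in PLNR9C (-2.65 ± 0.39). Cacna1c, the pore of the L-type calcium channel, fell by 0.78.

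In the list of adrenergic and cyclic nucleotide signalling 16 of 31 genes fell and 6 rose (median -0.35). The alpha-1 receptor Adra1a went from 57.5, 46.3 and 45.8 CPM in wild type to 8.68, 10.01 and 4.33 CPM in PLNR9C (-2.69 ± 0.31, adjusted p = 6.8e-05), and its relative Adra1b changed by -2.10 ± 0.24. Gpr22, an orphan receptor of heart, changed by -2.52 ± 0.27. Adcy6, an adenylyl cyclase of heart muscle, fell by 0.78 and the phosphodiesterase Pde3a, which hydrolyses cyclic AMP, by 0.97. Ace, angiotensin-converting enzyme, rose from 149.9, 166 and 147 CPM in wild type to 392, 398 and 368 CPM in PLNR9C (1.32 ± 0.08, adjusted p = 4.4e-10), and Pde1a, a calcium-dependent phosphodiesterase, by 1.05 ± 0.14. At the intercalated disc and costamere 11 of 22 fell and 1 rose. Dsg2, a desmosomal cadherin, went from 175, 179 and 147 CPM in wild type to 80.96, 78.4 and 66.01 CPM in PLNR9C (-1.15 ± 0.10), and the exception was the connexin Gja5 (0.59 ± 0.13). 10 of 21 cardiac transcription factors fell and none rose, Hopx foremost, with Mef2a (-0.80 ± 0.11) and Tbx5 (-0.81 ± 0.14). Of 13 splicing regulators of muscle 6 fell and 1 rose; Rbfox1 changed by -1.61 ± 0.11, Rbm20, a titin splicing factor, by -0.88 ± 0.08 and Celf2 by 0.33 ± 0.07.

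**Figure D4:**
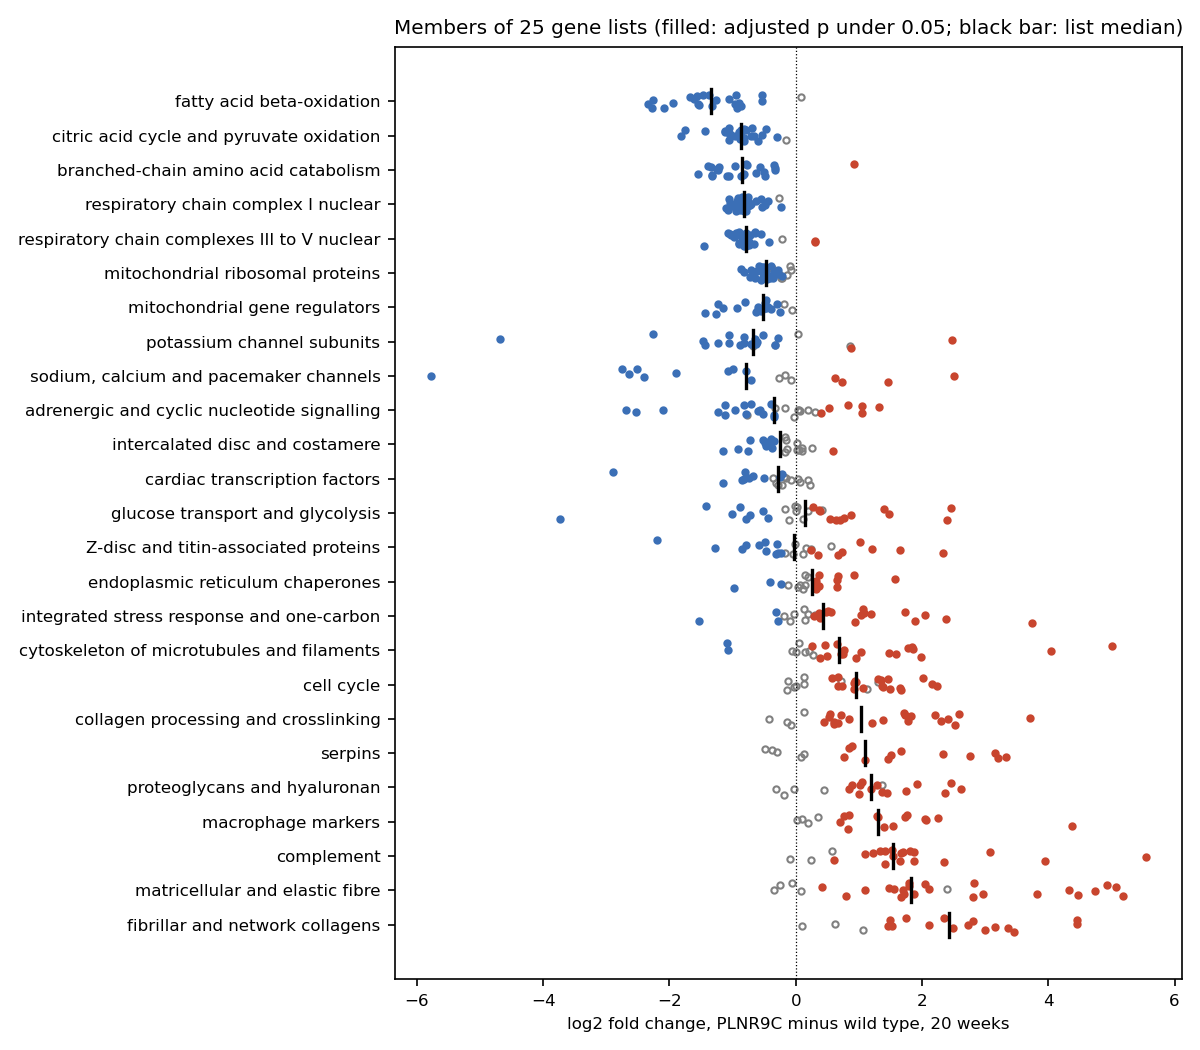
Log2 fold change (PLNR9C minus wild type) of each tested member of 25 gene lists, filled red for rises and blue for falls at an adjusted p under 0.05, open grey for the rest, with a black bar at the list median. Metabolic and mitochondrial lists lie to the left of 0 and matrix, complement and macrophage lists to the right, while the glycolysis and Z-disc lists spread to both sides.

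Extracellular matrix genes rose together. Of 18 tested fibrillar and network collagens 15 rose and 0 fell (median 2.42), against 23.3% of all genes that rose. Col1a1 went from 109.5, 138 and 121 CPM in wild type to 896, 707 and 837 CPM in PLNR9C (2.73 ± 0.28) and Col3a1 from 216, 252 and 243 CPM in wild type to 2202, 1513 and 1941 CPM in PLNR9C (2.99 ± 0.36), the main fibrillar collagens of heart. Col12a1, which decorates fibrils, had the largest rise, from 1.08, 1.16 and 1.32 CPM in wild type to 32.8, 26.2 and 18.8 CPM in PLNR9C (4.46 ± 0.26, adjusted p = 3.1e-09). Genes that process and crosslink collagen rose in 20 of 24 cases (median 1.03), among them the propeptidase Adamts2, from 28.4, 37.2 and 34.6 CPM in wild type to 218, 183 and 175 CPM in PLNR9C, and its enhancer Pcolce (1.71 ± 0.08). 14 of 19 proteoglycan and hyaluronan genes rose, with biglycan (Bgn) at 266, 354 and 286 CPM in wild type and 1817, 1655 and 1490.1 CPM in PLNR9C (2.45 ± 0.13) and the hyaluronan receptor Cd44 at 1.92 ± 0.14. 23 of 28 matricellular and elastic fibre genes rose (median 1.83). Periostin (Postn), a product of activated fibroblasts, went from 20.3, 33.7 and 25.9 CPM in wild type to 724, 513 and 536 CPM in PLNR9C (4.47 ± 0.32) and Ctgf, a CCN protein, from 169.9, 142 and 239 CPM in wild type to 1523, 1585 and 1197 CPM in PLNR9C (2.97 ± 0.40). 12 of 19 basement membrane genes rose by less (median 0.63), and 1, the laminin chain Lamb1, fell (-0.45 ± 0.12).

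Enzymes that cut matrix and their inhibitors gave 17 rises and 3 falls in 26 genes. Adamts20 went from 0.996, 0.755 and 1.01 CPM in wild type to 27.6, 30.3 and 40.8 CPM in PLNR9C (5.15 ± 0.25, adjusted p = 1.3e-10). The membrane-bound Mmp15 fell from 205, 188 and 169.5 CPM in wild type to 70.7, 77.7 and 79.4 CPM in PLNR9C (-1.30 ± 0.08), and the collagenase Mmp13, at 0.822, 1.42 and 0.760 CPM in wild type and 0.101, 0 and 0 CPM in PLNR9C, was listed at 0 reads in 2 of the PLNR9C libraries. Timp1 rose by 4.21 ± 0.29; Timp4 changed by -1.51 ± 0.47 (SE, adjusted p = 0.026), a call lost without any single library other than wild type replicates 2 and 3 (adjusted p up to 0.0918). Of the 10 tested genes of a cartilage, bone and tendon list 7 rose, including Mgp, an inhibitor of calcification, from 62.5, 51.98 and 59.3 CPM in wild type to 266, 228 and 200.5 CPM in PLNR9C; 12 of its 22 members were too low to test. Serpins rose in 12 of 17 cases, with Serpina3n, an acute-phase inhibitor, at 36.4, 39.8 and 48.4 CPM in wild type and 466, 299.6 and 377 CPM in PLNR9C (3.20 ± 0.14, adjusted p = 4.9e-10) and Serpinf1 at 2.34 ± 0.10. Markers of fibroblasts moved with the matrix genes: 9 of 12 rose, 0 fell, and their summed CPM was 2234 to 2308 CPM in wild type and 3630.4 to 3939.7 CPM in PLNR9C. Some of these, such as Dcn, are matrix genes and stand in both lists. The part of fibroblast number in the rises was not tested.

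The lists of growth factor and Wnt signalling were mixed, with more rises than falls in each. In the TGF-beta and BMP list 17 of 26 genes rose and 3 fell (median 0.68). The ligand Tgfb2 went from 14.9, 20.3 and 19.3 CPM in wild type to 131, 136 and 160.3 CPM in PLNR9C (2.97 ± 0.21, adjusted p = 1.1e-06) and Tgfb3 from 21.5, 20.6 and 25.96 CPM in wild type to 74.2, 80.1 and 91.1 CPM in PLNR9C (1.85 ± 0.10). The NADPH oxidase Nox4 changed by 4.41 ± 0.33. Of the latency proteins Ltbp3 rose by 1.42 ± 0.07 and Ltbp1 changed by -0.37 ± 0.07, and the accessory receptor Tgfbr3 by -0.50 ± 0.10. 10 of 21 Wnt ligands and modulators rose and 5 fell. The secreted antagonists Sfrp1, from 21.6, 24.1 and 18.4 CPM in wild type to 154, 127 and 164 CPM in PLNR9C (2.80 ± 0.12, adjusted p = 4.2e-11), and Frzb (2.00 ± 0.16) rose, and the antagonist Sfrp5 (-2.39 ± 0.65) and the ligands Wnt2b (-0.72 ± 0.15) and Wnt5a (-0.55 ± 0.15) fell. Of 35 growth factors and receptors 14 rose and 6 fell, among them Pdgfc (3.12 ± 0.27) and neuregulin Nrg1 (2.96 ± 0.32) up and the cytokine receptor Lifr (-0.77 ± 0.09) down. 10 of 20 transcription factors of fibroblast state rose, with Meox1, a factor of activated fibroblasts, at 10.9, 14.97 and 13.4 CPM in wild type and 40.3, 33.4 and 49.8 CPM in PLNR9C (1.65 ± 0.21) and Runx1 at 1.57 ± 0.19. Of the thyroid hormone genes, Dio2, the enzyme that makes active hormone, rose from 0.779, 0.889 and 1.12 CPM in wild type to 20.04, 13.5 and 19.5 CPM in PLNR9C (4.26 ± 0.25, adjusted p = 3.8e-10). Dio3, which inactivates it, was under the filter with 0, 1 and 0 reads in wild type and 22, 8 and 27 in PLNR9C. Crym, a cytosolic binder of the hormone, changed by 2.85 ± 0.48 and the receptor Thrb by -0.56 ± 0.13.

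Innate immune genes were higher. 18 of 21 complement genes rose and 0 fell (median 1.54). C4b, a component shared by the classical and lectin routes, went from 29.00, 27.7 and 23.98 CPM in wild type to 241, 228 and 215 CPM in PLNR9C (3.08 ± 0.09, adjusted p = 1.1e-13), the smallest p of the list. C1qa and C1qb, chains of the recognition unit, rose by 1.54 and 1.69, and the complement inhibitor Serping1 by 1.67. Cfi, the protease that inactivates C3b, went from 0.0866, 0.0444 and 0.152 CPM in wild type to 5.09, 4.36 and 4.18 CPM in PLNR9C. In the chemokine and cytokine list 14 of 25 rose and 2 fell, and 6 rose under the stricter filter, which leaves fewer of these low genes to test. Ccl8 went from 0.260, 0.400 and 0.203 CPM in wild type to 17.6, 8.54 and 10.3 CPM in PLNR9C (5.37 ± 0.37, adjusted p = 1.3e-08) and the B-cell attractant Cxcl13 from 0.0433, 0 and 0.101 CPM in wild type to 3.79, 1.51 and 1.56 CPM in PLNR9C. The eosinophil attractant Ccl11 went the other way, from 3.07, 2.27 and 1.37 CPM in wild type to 0.268, 0.0918 and 0.486 CPM in PLNR9C (-2.99 ± 0.49); the homeostatic Cxcl12 changed by -0.60 ± 0.19 (SE, adjusted p = 0.029) with overlapping libraries, a call that many alternatives lost, among them a fit on the 6 libraries alone (adjusted p = 0.0976). 7 of 8 tested class II antigen presentation genes rose, 4 without PLNR9C replicate 1. Markers of macrophages moved with these genes, with 14 of 18 higher, 0 lower and a summed CPM of 247 to 280.3 CPM in wild type and 501 to 643 CPM in PLNR9C. Gpnmb, a glycoprotein of lipid-laden macrophages, was at 0.433, 0.889 and 0.811 CPM in wild type and 19.1, 12.4 and 12.8 CPM in PLNR9C (4.38 ± 0.27). Of 14 lymphocyte markers only 4 could be tested, and their sum was 1.98 to 3.02 CPM in wild type and 4.18 to 6.37 CPM in PLNR9C; 2 rose, Cd4 and Lck, the call of Lck being lost under 10 of the alternatives. The part of macrophage number in the immune rises was not tested.

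The integrated stress response, a programme run by the transcription factor ATF4, and the one-carbon and proline enzymes it serves gave 16 rises and 3 falls in 26 genes (median 0.43). Mthfd2, a mitochondrial folate enzyme, went from 1.51, 0.755 and 1.22 CPM in wild type to 17.2, 15.3 and 14.2 CPM in PLNR9C (3.74 ± 0.18, adjusted p = 4.4e-11), Nupr1, a stress-induced nuclear protein, from 1.56, 1.56 and 1.72 CPM in wild type to 8.14, 8.35 and 8.85 CPM in PLNR9C (2.39 ± 0.18), and Pycr1, the last step of proline synthesis, from 1.26, 2.31 and 1.27 CPM in wild type to 7.47, 5.83 and 6.71 CPM in PLNR9C (2.04 ± 0.23). Not every member followed. Ddit3, which encodes the factor CHOP, was at 16.1, 18.5 and 18.1 CPM in wild type and 17.1, 18.1 and 16.3 CPM in PLNR9C (adjusted p = 0.86). The 3 falls were of Cth, a cysteine-forming enzyme at low level (-1.53 ± 0.59, adjusted p = 0.048, and 0.0507 to 0.131 in the 7 alternatives that lost it), the serine enzyme Shmt2 (-0.31 ± 0.08) and the arginine carrier Slc7a1 (-0.28 ± 0.10), whose call was lost under upper quartile scaling and without any of 4 single libraries (adjusted p from 0.067 to 0.122).

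The C/EBP-ATF response element, the sequence bound by ATF4 with its partners, is shown for the members of this list that carry the letters TTGCATCA on either strand in the 250 bases before a RefSeq start site. 5 genes did, from 5 of the 26 windows of the list (23 genes matched), against 0.791% of 32851 windows of the same length. The element was picked after 22 motifs had been scanned, and a match is not shown to be a bound site. The list was drawn up as genes of the ATF4 programme, so its share of windows is not independent of the element. Sequences run 5′ to 3′ on the gene's strand (RefSeq, GRCm38.p6), with the match in capitals. They are ordered by log2 fold change from Nupr1 at 2.39 to Chac1 at 0.56. Each of the 5 genes rose, among 16 rises in the 26 genes of the list.
Nupr1 (chr7:126625547-126625606, minus strand): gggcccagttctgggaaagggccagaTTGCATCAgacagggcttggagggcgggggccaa
Pycr1 (chr11:120643818-120643877, minus strand): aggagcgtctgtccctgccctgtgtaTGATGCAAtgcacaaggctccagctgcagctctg
Slc7a11 (chr3:50443646-50443705, minus strand): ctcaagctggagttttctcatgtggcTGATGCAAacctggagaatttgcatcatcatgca
Atf3 (chr1:191183410-191183469, minus strand): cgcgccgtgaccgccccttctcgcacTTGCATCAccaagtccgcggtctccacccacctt
Chac1 (chr2:119351023-119351082, plus strand): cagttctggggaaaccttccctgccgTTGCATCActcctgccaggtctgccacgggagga
The match began 110 bases before the start site in Nupr1 and Atf3, 103 in Pycr1, 66 in Slc7a11 and 193 in Chac1. Slc7a11, a cystine carrier, holds a further match in lower case in the printed stretch. TTGCATCA also lay in 1 of 20 windows of the beta-oxidation genes and 1 of 17 of the endoplasmic reticulum chaperones. It lay in 0 of 63 of the nuclear respiratory chain genes and 0 of 33 of the citric acid cycle list. TCAAGGTCA, the element of the estrogen-related receptors, lay in 1 of 63 respiratory chain windows and 0 of 20 beta-oxidation windows, against 0.387% of all windows. Windows this few cannot show whether these lists differ from the background.

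Other stress systems were mixed. Endoplasmic reticulum chaperones gave 10 rises and 3 falls in 20 genes, and 6 rises without PLNR9C replicate 3. Manf, a secreted chaperone, went from 8.66, 9.02 and 11.3 CPM in wild type to 20.04, 13.8 and 20.7 CPM in PLNR9C (0.92 ± 0.15), whereas Hspa5, the main chaperone, did not pass (-0.12 ± 0.11, adjusted p = 0.36) and Herpud1 changed by -0.98 ± 0.20. Of 26 antioxidant genes 10 rose and 8 fell. The plasma peroxidase Gpx3 went from 138, 176 and 174 CPM in wild type to 597, 676 and 599.9 CPM in PLNR9C (1.94 ± 0.10, adjusted p = 8.4e-11) and Gpx1 rose by 1.24 ± 0.08. The mitochondrial enzymes Sod2 and Prdx3 fell by 1.13 and 0.81. Among genes of proteolysis in muscle 8 of 24 rose and 11 fell. The deubiquitinase Uchl1, best known from neurons, went from 2.68, 2.09 and 3.498 CPM in wild type to 28.3, 26.6 and 20.6 CPM in PLNR9C (3.20 ± 0.18, adjusted p = 2.3e-10), and Asb11, a ubiquitin ligase adaptor of muscle, from 114, 119.7 and 136 CPM in wild type to 56.1, 56.6 and 55.5 CPM in PLNR9C (-1.14 ± 0.08).

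The cytoskeleton and adhesion lists were mostly higher. 18 of 26 genes of microtubules and filaments rose and 2 fell (median 0.69). Krt18, a keratin of simple epithelia, went from 0.216, 0.311 and 0.253 CPM in wild type to 6.17, 9.41 and 10.1 CPM in PLNR9C (adjusted p = 6.0e-10), and Tubb3, a tubulin best known from neurons, from 0.216, 0 and 0.253 CPM in wild type to 2.88, 1.698 and 3.26 CPM in PLNR9C. The falls were the tubulins Tuba4a (-1.08 ± 0.16) and Tuba8 (-1.09 ± 0.18). Ncam1, a neural cell adhesion molecule, went from 4.502, 4.13 and 4.01 CPM in wild type to 87.7, 76.5 and 83.9 CPM in PLNR9C (4.29 ± 0.17, adjusted p = 1.3e-10). The 3 PLNR9C libraries of that gene lay within a narrow band. 16 of 24 integrins and adhesion receptors rose and 1, Itgb6, fell (-1.33 ± 0.32). Of 29 cell cycle genes 20 rose and 0 fell (median 0.95), with Ccnd2, a cyclin of the first growth phase, at 167, 145 and 147 CPM in wild type and 370.5, 415 and 395 CPM in PLNR9C (1.36 ± 0.08, adjusted p = 3.8e-10) and E2f1 at 1.56, 1.95 and 1.88 CPM in wild type and 8.91, 6.38 and 6.37 CPM in PLNR9C.

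Markers of other cell types were read the same way. Of 16 endothelial markers 8 fell and 1 rose, and their summed CPM was 2601 to 3086 CPM in wild type and 2184 to 2364 CPM in PLNR9C. The rise was Vwf, the clotting factor carrier, from 89.04, 108 and 134 CPM in wild type to 266, 250.03 and 242 CPM in PLNR9C (1.19 ± 0.14). Smooth muscle and pericyte markers gave 4 rises and 6 falls in 14. Their sum was 3394 to 3429 CPM in wild type and 4709.9 to 5289.5 CPM in PLNR9C. Des, a cardiomyocyte gene too, is its largest term, at means of 1664 CPM in wild type and 3833 CPM in PLNR9C. That rise exceeds the rise of the sum, so the other markers together were lower in PLNR9C. Epicardial markers rose in 6 of 10 cases and sum to 36.6 to 57.3 CPM in wild type and 70.9 to 86.7 CPM in PLNR9C. Krt18, which the cytoskeleton list also holds, is among the epicardial rises. Of 22 immediate early genes, which respond within minutes to handling, 12 rose and 0 fell, at 421 to 535 CPM in wild type and 605 to 694 CPM in PLNR9C in sum, and of 16 circadian clock genes 1 rose and 2 fell, each with a call lost under at least 1 alternative. Xist was at 7.06, 12.8 and 7.503 CPM in wild type and 1.27, 3.12 and 2.53 CPM in PLNR9C (-2.02 ± 0.43), a low level in libraries that all held Y-linked reads.

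The same contrast at 16 weeks in pooled, separated cells is given for each cell fraction beside the ventricle. Fractions were fitted apart from the ventricle, and no test of ventricle against fraction was made. In cardiomyocytes 14.3% of 14142 genes rose and 11.8% fell; in non-myocytes 10.3% of 15347 rose and 8.32% fell. Beta-oxidation genes fell in 21 of 24 cases in cardiomyocytes (median -0.91), and in 10 of 24 in non-myocytes (median -0.40). Branched-chain genes fell in 16 of 24 cases in cardiomyocytes and 1 of 24 in non-myocytes. For complex I 10 of 37 fell in cardiomyocytes (median -0.38) and 1 of 37 in non-myocytes (median -0.26). Beside these, the 10 sarcomeric and ventricular identity genes had a median of -0.84 in the non-myocyte libraries, where 1 fell and 1 rose; the part of carried-over cardiomyocyte RNA in the non-myocyte values was not tested. Nppa stood at 83.5 and 7162 CPM in wild type and PLNR9C cardiomyocytes, and 26.3 and 267 CPM in the non-myocytes. Several of the rises were large in cardiomyocytes and did not pass in non-myocytes, a difference between fractions that was not itself tested. For Ncam1 the changes were 4.90 ± 0.29 and 0.05 ± 0.17 (adjusted p = 0.87), for Adamts20 5.12 ± 0.41 and 0.58 ± 0.31 (adjusted p = 0.22), for Mthfd2 3.90 ± 0.24 and 0.26 ± 0.31 (adjusted p = 0.63), for Tgfb2 3.56 ± 0.31 and 0.27 ± 0.11 (adjusted p = 0.11) and for Uchl1 3.38 ± 0.26 and 0.38 ± 0.25 (adjusted p = 0.34). Integrated stress response genes rose in 16 of 26 cases in cardiomyocytes and in 3 of 25 in non-myocytes.

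Matrix genes rose in both fractions: collagens in 13 of 17 in cardiomyocytes and 15 of 17 in non-myocytes. Their levels lay higher in non-myocytes for Postn, at 11.3 and 98.7 CPM in wild type and PLNR9C cardiomyocytes, and 161 and 1498 CPM in the non-myocytes. Non-myocyte transcripts in the cardiomyocyte libraries moved with genotype: 8 of 12 fibroblast markers and 12 of 16 macrophage markers rose there, and the part of carried-over RNA in the cardiomyocyte values of matrix and immune genes was not tested. Immediate early genes gave 2 rises and 1 fall in cardiomyocytes and 0 and 6 in non-myocytes, where the ventricle had 12 rises. Smooth muscle and pericyte markers gave 3 rises and 2 falls of 14 in cardiomyocytes and 0 and 11 in non-myocytes. Endothelial markers gave 0 rises and 1 fall of 16 in cardiomyocytes and 0 and 11 in non-myocytes. For epicardial markers it was 1 rise and 0 falls of 10 in cardiomyocytes and 0 and 2 in non-myocytes.

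**Figure D5:**
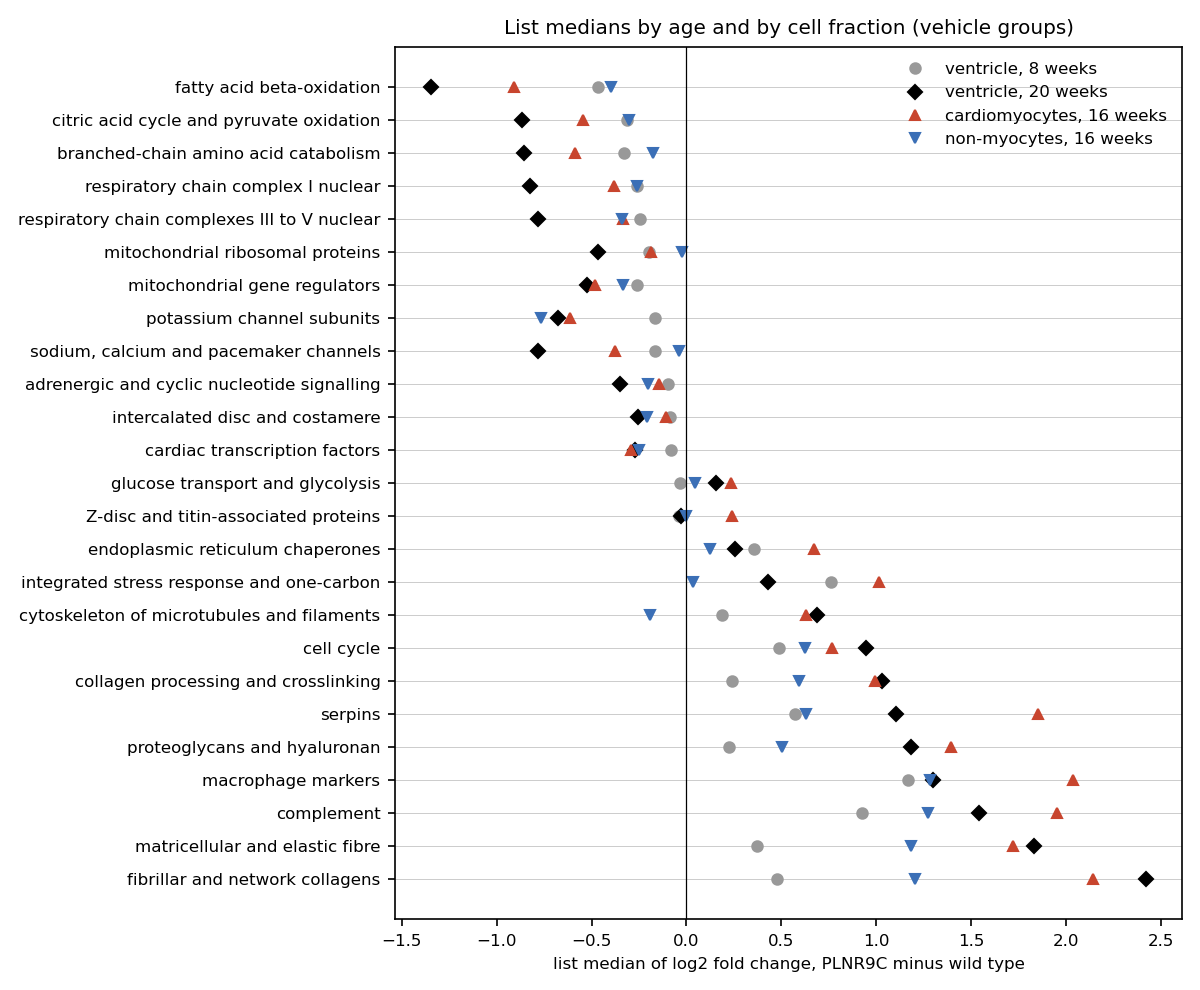
Median log2 fold change (PLNR9C minus wild type, vehicle) of 25 gene lists in ventricle at 8 weeks (circles) and 20 weeks (diamonds), and in cardiomyocytes (upward triangles) and non-myocytes (downward triangles) at 16 weeks. For most metabolic lists the 20-week ventricle lies farthest from 0, and for the integrated stress response list cardiomyocytes do, at 1.01.

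The 20-week effect was also set against the 8-week one in a joint fit of the 12 vehicle ventricles. The genotype effect was more positive at 20 weeks for 6.88% and more negative for 8.89% of 15722 genes. Beta-oxidation genes were more negative in 21 of 24 cases and collagens more positive in 13. Complement genes were more positive in 9 of 21, whereas of the macrophage markers and class II genes, already higher at 8 weeks by medians of 1.17 and 1.34, 0 passed this test. In the integrated stress response list 1 gene was more positive and 4 were more negative at 20 weeks, with a median of 0.76 at 8 weeks.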

How the data were processed

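Reads per gene of whole ventricle at 20 weeks (12 libraries, 4 groups of 3) were the deposited counts, one column per library. STAR 2.4.1b and GRCm38 appear, with no role, among the submitters' processing notes, and the sources used here do not name a counting tool, annotation or strand setting. Levels between genes used RPKM, the deposited normalized columns, whose unit was worked out from the values because the file headers say only "norm". Libraries were grouped by the labels, and 0 columns were left unmatched.

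Counts were fitted with edgeR 4.0.16 in R 4.3.3 (TMM factors, its default filter on low counts, quasi-likelihood with robust dispersion, 8 residual degrees of freedom) on the 12 libraries, which share the estimate of spread, and p-values were adjusted over all 15971 genes. The SE is the fold change divided by the square root of F. CPM values use TMM-scaled library sizes. The 16-week fractions and the joint fit of ages were fitted in the same way, and fraction levels are CPM on plain library totals. limma 3.58.1 and DESeq2 1.42.0 were alternatives, beside other scalings and filters and leaving out each library. On simulated counts of 15392 genes for this contrast, 14.5%, 78.8% and 100% of genes changed by 0.5, 1 and 2 on the log2 scale were recovered. The simulation had far fewer changed genes than were called here. It gave every gene the same preset dispersion, not one estimated from these data, so these shares do not measure recovery in the real libraries.

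The genes named were the 15 largest rises and 15 largest falls with at least 10 CPM in the higher group and no overlap, up to 4 members per list with the smallest p, up to 2 that moved against their list, and a short set of genes known for this disease. The members and the 65 gene lists were chosen with earlier results of these data known. Of 1359 listed symbols 1351 matched the table. The 18 pairs, the promoter motifs shown, and Fgf23, Cfi, Cxcl13, Krt18, Tubb3, Mmp13, Clcn1, Adra1a, Adra1b, Gpr22, Hcn4, Sfrp5, Meox1, Fkbp1b, Cth, Oxct1, Ddit3 and Hspa5 were chosen after their values were seen. Promoter sequence came from RefSeq, and windows on chromosome 18 were left out of the motif scan and its background. Some genes that met the naming rule are not reported here.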

Additional observations from a re-analysis of the deposited data

Results flagged for a closer look

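The genotype effect differed between 20 and 8 weeks in the joint edgeR fit of the 12 vehicle ventricles for 1081 genes that were more positive at 20 weeks and 1397 that were more negative, of 15722 tested. Ages were separate tables, so an age-wide difference in handling cancels only where it touched both genotypes alike. Of 29 genes with the largest rises and falls at 20 weeks 25 passed this test; they were chosen for their 20-week change in the same libraries, which favours passing, so this count is a description. The differences below are the 20-week minus the 8-week log2 fold change.

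Among the rises the difference was 3.70 for Nppa, 5.27 for Wisp2, 4.99 for Sfrp2, 2.89 for Adamts20, 4.71 for Comp and 4.98 for Ltbp2. It was 4.59 for Cilp, 4.22 for Mfap4, 3.92 for Postn, 4.39 for Col12a1 and 4.52 for Col8a2. Among the falls it was -4.53 for Acsm5, -3.81 for Scd4, -3.61 for Kcnv2, -2.89 for Cyp2b10, -3.89 for Lgi1, -3.57 for Efnb3 and -3.30 for Fbp2. It was -2.87 for Pfkfb1, -2.73 for Ces1d, -2.61 for Hopx, -1.99 for Mylk4, -2.37 for Pla2g4e, -2.11 for Rasd2 and -1.96 for Scn4a. Ccl8, Angptl7, Gdf15 and Ucp3 did not pass. At 8 weeks Ccl8 had changed by 4.22 ± 0.59 and Gdf15 by 2.61 ± 0.24.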

How the results depend on the processing

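Counts of genes that rose and fell kept within 1.5 times under every alternative run. They were 4092 and 3040 with upper quartile scaling, which moved the median of all genes to 0.05, and 3593 and 3363 without a filter on low counts. DESeq2 gave 3738 and 3412 and limma voom 3750 and 3399. Leaving out 1 library gave 6085 to 6580 genes that changed, 1979 to 2179 at least 2-fold, and 1902 to 2438 for the difference between ages. Of 870 counts over gene lists 859 kept within 1.5 times. The exceptions were 6 ephrin and guidance genes that fell under upper quartile scaling (11 in the reported fit; 6 to 9 without 1 library), 6 chemokines and cytokines that rose under the stricter filter, and 0 mitochondrially encoded genes where these were taken out. Without 1 library the range was 7 to 11 for rises of the natriuretic list, 7 to 10 for falls of the Z-disc list, 4 to 7 for rises of class II genes and 6 to 12 for rises of endoplasmic reticulum chaperones. No named gene changed direction under an alternative where it passed in either fit. Changes of sign where neither fit passed were not counted. A fit with the replicate number as a block gave 3742 that rose and 3421 that fell; same-numbered libraries correlated at 0.07, -0.10 and 0.11, and 2 of 3 libraries correlated best with their own number, so the numbers are not taken to pair the samples. Of 337 named genes 23 lost their call under at least 1 alternative, among them Cth, Fkbp1b, Kcnab1, Lck, Mcpt4 and Tnnt3, whose low counts limit the precision.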
